A study of Mus musculus with 17 samples.

Results

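The 35 genes described here encode proteins that fold, check and degrade secretory proteins in the endoplasmic reticulum (ER) of the mouse. They were taken by symbol from a list and comprise 8 chaperones, 4 DnaJ co-chaperones, 8 protein disulfide isomerases, 9 degradation factors, 3 genes of stress sensing and signalling (Ern1, Atf6 and Xbp1) and 3 transport proteins. All 35 had a row among the 49315 genes of the liver files and among the 15632 genes listed in the hepatocyte files. All 35 were also among the 15820 liver genes and the 11471 hepatocyte genes that passed the filter on low counts. RNA sequencing covered 4 SMSrKO and 4 wild-type (WT) livers from mice given a high-fat diet, with fructose in their drinking water, for 16 weeks. It also covered hepatocytes taken with collagenase from mice 2 months old, with 3 libraries of Sms1/Sms2/Smsr-tKO (tKO), 3 of Sms1/Sms2-dKO (dKO) and 3 of WT. SMS1, SMS2 and SMSr, encoded by Sgms1, Sgms2 and Samd8, form the sphingomyelin synthase family, so tKO mice carry the dKO lesions plus the Smsr lesion. The sources used here do not say whether the deletions were whole-body, no diet is given for the hepatocyte mice, and no hepatocyte group carries the Smsr lesion alone.

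Hepatocytes secrete most plasma proteins, and these enter the ER through the Sec61 channel and fold there with the help of chaperones, of lectins that hold glycoproteins, and of enzymes that form and shuffle disulfide bonds. Proteins that do not fold are pulled back to the cytosol by a membrane complex built on Sel1l and the ubiquitin ligase Syvn1, a process known as ER-associated degradation. When unfolded protein builds up, the sensors Ern1 (IRE1 alpha), Atf6 and PERK start the unfolded protein response, in which cleaved ATF6 and spliced XBP1 raise the transcription of many chaperone and degradation genes. ATF6 acts with NF-Y at the ER stress response element (ERSE) in the promoters of such genes.

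Total counts ran from 24391627 to 47351126 in the liver libraries and from 9221481 to 9665310 in the hepatocyte libraries. The common biological coefficient of variation, which is the spread between replicates beyond counting noise, was 20.3% in liver and 3.52% in hepatocytes. Nothing in the labels says that each library is a different animal, and the p-values below then describe library-to-library spread that may be technical. The tissue label of the SMSrKO experiment is liver, but its extract protocol names sWAT. Alb had 1068303 counts or more in every library of that experiment, whereas the adipocyte marker Adipoq had 3 or fewer. In liver, the library WT 1 stood apart from the other 7 on the first principal component. This component also separated the groups, with WT libraries from −48.7 to −9.10 and SMSrKO libraries from 6.83 to 29.4. Of the targeted genes, Sgms2 had fewer counts in the hepatocyte libraries labelled as knockouts, and Sgms1 and Samd8 did not. Sgms1 was higher in both knockouts, with 547 to 598 counts in tKO, 797 to 895 in dKO and 424 to 483 in WT. In liver Samd8 had 54.2 ± 3.67 CPM in SMSrKO and 42.6 ± 6.38 in WT (SD, n = 4 each), so it was not lower in SMSrKO either. In hepatocytes Samd8 had 960 to 1003 counts in tKO, 703 to 806 in dKO and 602 to 675 in WT. Which exons were deleted was not found in the labels, and counts over a whole gene cannot check them.

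In hepatocytes, most of these genes fell in dKO, and 18 of the 35 fell in dKO and came back near the WT level in tKO. The 35 genes were chosen with earlier results of these data known. The shares of all genes are therefore given beside their counts as a description, not as a test of the set. Against WT, 24 of the 35 genes fell in dKO and 2 rose, where 20.0% of all genes tested fell and 24.0% rose (edgeR's quasi-likelihood test, Benjamini-Hochberg adjusted p at a threshold of 0.05). The 35 genes had a median log2 difference of −0.30 between dKO and WT, against −0.01 over all genes tested. Against dKO, 24 of the 35 rose in tKO and 3 fell, where 14.3% of all genes rose and 15.2% fell. Their median log2 difference between tKO and dKO was 0.19, against 0.00 over all genes. Against WT, 8 of the 35 rose in tKO and 8 fell, where 25.6% of all genes rose and 21.8% fell, and the median was 0.01. With library totals alone in place of TMM scaling, 12 of the 35 rose in tKO against WT and 5 fell, where 28.2% of all genes rose and 18.9% fell. Each hepatocyte group is used in 2 of these comparisons. In these bulk samples, fewer cells of a type and less RNA per cell cannot be told apart, and markers of other liver cells also differed between the groups.

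The libraries separated the same way. For 24 of the 35 genes every dKO library was below every WT library and for 2 every dKO library was above, where this held for 25.1% and 26.7% of all genes. For 26 genes every tKO library was above every dKO library and for 3 below, against 19.6% and 20.2% of all genes. For 8 genes every tKO library was above every WT library and for 7 below, against 27.8% and 25.6% of all genes.

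The spread between the hepatocyte libraries was small, and these counts rest on it. A further fit took 1 common dispersion, that of the liver libraries, for every gene and edgeR's likelihood ratio test, so the test changed too. With this fit, 6 of the 35 fell in dKO against WT (Derl3, Creld2, Sdf2l1, Pdia4, Hsp90b1 and Hspa5), and 0 rose, where 1.62% of all genes fell and 7.58% rose. An unadjusted p under 0.05 was then reached by 9 of the 35, all lower. With this setting 4 rose in tKO against dKO (Derl3, Creld2, Pdia4 and Sdf2l1), and 0 fell, where 0.959% of all genes rose and 1.88% fell. In tKO against WT, 0 rose and 0 fell, with 3 at an unadjusted p under 0.05, where 7.65% of all genes rose and 3.0% fell. These shares are at the adjusted p, and none was taken at an unadjusted p for this fit. By DESeq2, without the liver dispersion, 24 fell and 2 rose in dKO against WT, where it called 14.9% of all genes lower and 20.7% higher. It called 7 higher and 6 lower in tKO against WT (21.9% and 17.5% of all genes), and 22 higher and 3 lower in tKO against dKO (9.95% and 11.6% of all genes).

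**Figure D1:**
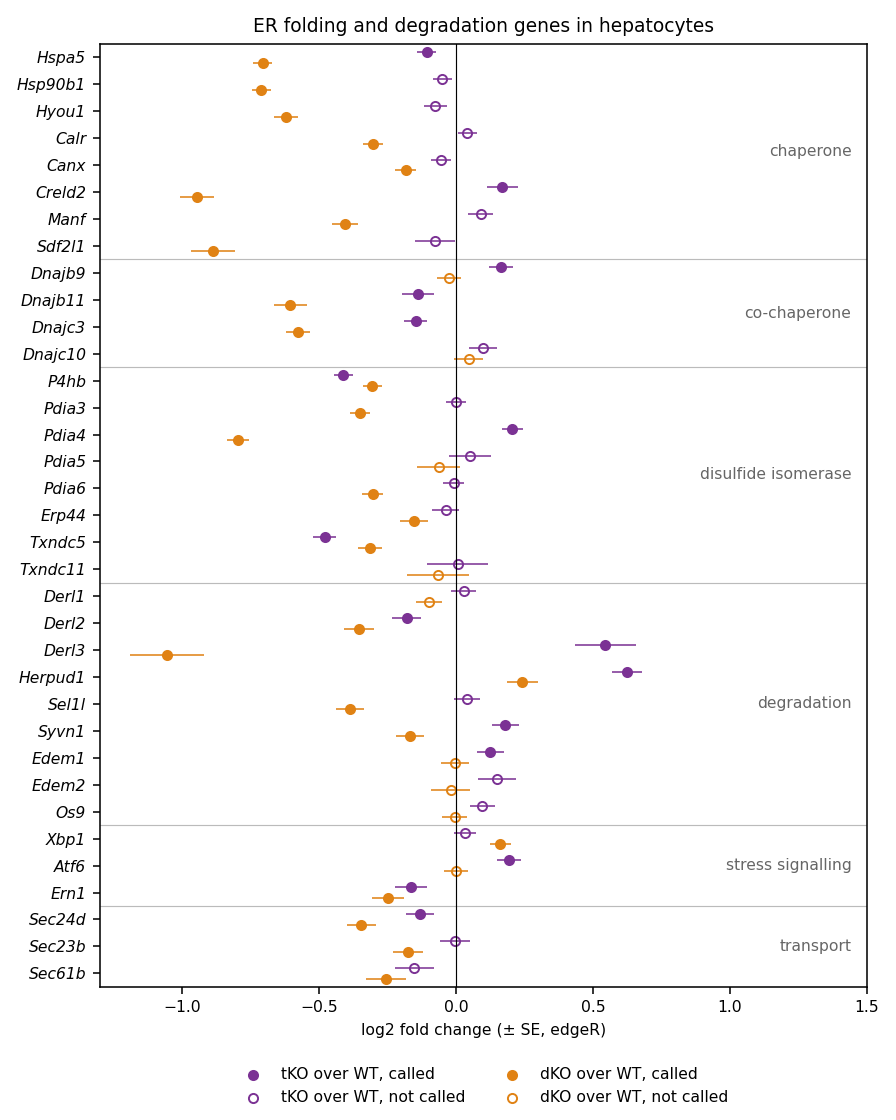
Difference between hepatocytes of tKO and WT mice (purple) and of dKO and WT mice (orange) for each of the 35 genes, ordered by role. The horizontal axis is the log2 fold change from edgeR with its standard error, and filled points have an adjusted p under 0.05. All 8 chaperones lie left of 0 in dKO, from −0.95 for Creld2 to −0.18 for Canx, while in tKO they lie between −0.11 for Hspa5 and 0.17 for Creld2.

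Of the 24 genes that fell in dKO, 18 rose again in tKO against dKO and ended within 0.25 log2 units of WT. They were all 8 chaperones (Hspa5, Hsp90b1, Hyou1, Calr, Canx, Creld2, Manf and Sdf2l1), the co-chaperones Dnajb11 and Dnajc3, the isomerases Pdia3, Pdia4 and Pdia6, the degradation genes Derl2, Sel1l and Syvn1, and the coat genes Sec24d and Sec23b. Over all genes tested, 3.8% met the same rule, and of all genes that fell in dKO, 19.0% did. By edgeR, 5 of the 18 were still lower and 3 higher in tKO than in WT, where 21.8% of all genes fell and 25.6% rose. The difference between tKO and WT closest to the limit on the inside was 0.21, for Pdia4. Derl3 met the other conditions and lay outside it at 0.55. Of the other 5 genes that fell in dKO, P4hb and Txndc5 fell further in tKO, and Erp44, Ern1 and Sec61b did not differ by the test between tKO and dKO. Summed over the 18 genes, the scaled counts (CPM, counts as a share of the scaled library total) came to 9601 to 9957 in tKO, 6770 to 6937 in dKO and 9915 to 10213 in WT. This order follows from how the 18 were chosen and is given as a description. With the liver dispersion, 3 of the 18 still met the rule (Creld2, Pdia4 and Sdf2l1). The share of all genes that met it was not taken with this dispersion.

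Promoter sequences are shown for the 6 of these 18 genes with the largest fall in dKO among those with a sequence in the table, and for Herpud1 and Xbp1, the genes that rose in dKO. They come from RefSeq (mouse build GRCm38.p6), run 5′ to 3′ on the strand of the gene, and cover 250 bases before the annotated start and 50 bases from it on. The windows are chr15:88819396-88819695 (plus strand) for Creld2, chr16:17132334-17132633 (minus) for Sdf2l1, chr6:47813463-47813762 (minus) for Pdia4, chr10:86705395-86705694 (minus) for Hsp90b1, chr2:34771840-34772139 (plus) for Hspa5, chr16:22857595-22857894 (plus) for Dnajb11, chr8:94386179-94386478 (plus) for Herpud1 and chr11:5520391-5520690 (plus) for Xbp1. Capitals mark matches to the ERSE (CCAAT, then 9 bases of any kind, then CCACG) or to ERSE-II (ATTGG, 1 base of any kind, CCACG), searched on both strands, and matches to their shared core CCACG that lie outside these.
Creld2: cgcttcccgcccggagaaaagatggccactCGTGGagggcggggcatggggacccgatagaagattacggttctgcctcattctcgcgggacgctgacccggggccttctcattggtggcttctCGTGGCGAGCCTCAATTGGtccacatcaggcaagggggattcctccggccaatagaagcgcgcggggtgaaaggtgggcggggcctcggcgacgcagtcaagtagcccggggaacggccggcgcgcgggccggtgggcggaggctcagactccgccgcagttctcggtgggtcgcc
Sdf2l1: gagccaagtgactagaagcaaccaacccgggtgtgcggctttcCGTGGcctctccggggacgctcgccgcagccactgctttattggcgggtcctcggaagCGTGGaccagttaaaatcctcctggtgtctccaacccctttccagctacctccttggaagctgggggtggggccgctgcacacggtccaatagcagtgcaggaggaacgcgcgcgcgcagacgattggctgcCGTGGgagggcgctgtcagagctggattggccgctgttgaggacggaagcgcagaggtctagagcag
Pdia4: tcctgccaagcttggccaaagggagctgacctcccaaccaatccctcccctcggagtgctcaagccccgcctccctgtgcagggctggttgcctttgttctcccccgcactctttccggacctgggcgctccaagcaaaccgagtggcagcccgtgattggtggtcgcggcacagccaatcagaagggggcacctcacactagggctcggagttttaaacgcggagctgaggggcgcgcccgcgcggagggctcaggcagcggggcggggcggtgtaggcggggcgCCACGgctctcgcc
Hsp90b1: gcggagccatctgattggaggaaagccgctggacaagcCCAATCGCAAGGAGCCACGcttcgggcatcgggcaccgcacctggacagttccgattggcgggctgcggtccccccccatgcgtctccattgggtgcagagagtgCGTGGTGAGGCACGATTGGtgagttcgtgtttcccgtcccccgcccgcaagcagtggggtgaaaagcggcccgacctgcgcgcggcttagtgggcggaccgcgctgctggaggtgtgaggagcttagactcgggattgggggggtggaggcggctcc
Hspa5: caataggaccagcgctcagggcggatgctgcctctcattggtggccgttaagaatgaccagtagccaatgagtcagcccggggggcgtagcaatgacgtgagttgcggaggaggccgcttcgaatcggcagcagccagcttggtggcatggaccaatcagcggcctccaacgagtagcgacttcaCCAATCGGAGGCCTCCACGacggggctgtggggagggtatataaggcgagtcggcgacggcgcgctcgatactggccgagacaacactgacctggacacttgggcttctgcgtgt
Dnajb11: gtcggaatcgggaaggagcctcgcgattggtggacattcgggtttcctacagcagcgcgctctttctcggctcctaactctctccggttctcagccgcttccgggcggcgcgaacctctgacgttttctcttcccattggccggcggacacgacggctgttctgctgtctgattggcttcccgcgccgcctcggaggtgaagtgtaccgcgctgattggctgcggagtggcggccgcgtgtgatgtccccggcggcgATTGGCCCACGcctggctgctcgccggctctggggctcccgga
Herpud1: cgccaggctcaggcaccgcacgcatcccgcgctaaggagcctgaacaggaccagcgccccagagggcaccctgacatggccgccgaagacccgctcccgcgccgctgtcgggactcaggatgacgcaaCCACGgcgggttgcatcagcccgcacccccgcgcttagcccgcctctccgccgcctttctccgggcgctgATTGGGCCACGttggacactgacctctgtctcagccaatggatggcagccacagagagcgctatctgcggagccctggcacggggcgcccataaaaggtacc
Xbp1: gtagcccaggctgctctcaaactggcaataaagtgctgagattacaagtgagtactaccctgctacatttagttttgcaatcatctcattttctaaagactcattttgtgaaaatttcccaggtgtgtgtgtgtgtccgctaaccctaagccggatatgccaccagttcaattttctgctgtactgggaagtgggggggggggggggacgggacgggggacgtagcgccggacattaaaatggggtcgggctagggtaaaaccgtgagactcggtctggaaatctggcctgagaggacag

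Of the 35 genes, 31 had a promoter in the table, and 9 of these 31 held a full ERSE, which 39 of all 32851 promoters in the table held (0.119%). Some of the 31 genes had more than 1 promoter, and a gene counted when any of them matched. The percentages of all promoters are per promoter, so the 2 measures are not quite alike. Among the 18 genes that fell in dKO and stood near WT in tKO, 16 had a promoter and 8 of them held an ERSE: Hspa5, Hsp90b1, Calr, Canx, Creld2, Dnajc3, Pdia6 and Syvn1. Among the other 15 genes with a promoter, 1 held it, and this was Derl3, which also fell in dKO. The 16 and the 15 were divided by their response in these same data. The ERSE is an element of promoters of such genes, as stated above, so these counts are a description. Whether the ERSE had a part in the differences was not tested. Hsp90b1 had 2 matches, and the match of Hspa5 lay 65 to 47 bases before its start. ERSE-II was found in Dnajb11 and Herpud1, against 0.0365% of all promoters. The short core CCACG was in 26 of the 31, in 14 of the 16 and in 12 of the other 15, against 32.8% of all promoters, and each full element contains it. Sdf2l1 and Pdia4 showed the core without a full element, and the window of Xbp1 held none of these letters. A match describes letters in this window, and binding was not measured.

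The 2 most abundant chaperones of the ER fell together. Hspa5 encodes BiP, the ER member of the Hsp70 family, which binds nascent chains and keeps the stress sensors inactive. It had 3401, 3123 and 3237 CPM in tKO, 2101, 2138 and 2209 in dKO and 3377, 3585 and 3545 in WT. Every dKO library lay below every tKO and WT library, and the tKO and WT values overlapped. The log2 difference was −0.70 ± 0.0344 (SE) for dKO against WT, which is 0.614 of the WT level (edgeR adjusted p = 4.11e-31). It was 0.60 ± 0.0343 for tKO against dKO (adjusted p = 2.41e-26). Hspa5 was slightly lower in tKO than in WT, at log2 −0.11 ± 0.0341 (edgeR adjusted p = 0.00710). Hsp90b1 encodes GRP94, the ER member of the Hsp90 family. Its values were 1833, 1688 and 1752 CPM in tKO, 1098, 1132 and 1106 in dKO and 1819.8, 1846 and 1791 in WT, with the same arrangement of the groups. Hsp90b1 differed by −0.71 ± 0.0349 between dKO and WT (edgeR adjusted p = 7.19e-31) and by 0.66 ± 0.0349 between tKO and dKO (adjusted p = 1.71e-28).

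Genes whose products assist BiP or are secreted under stress were also lowest in dKO. Creld2, an ER resident that is induced by stress and can be secreted, had 98.5, 112 and 101 CPM in tKO, 48.8, 49.01 and 45.9 in dKO and 90.99, 99.2 and 86.8 in WT. No dKO library reached the other groups, and dKO stood at 0.519 of WT (log2 −0.95 ± 0.0625, edgeR adjusted p = 2.87e-23). Creld2 rose 2.17-fold in tKO against dKO and was above WT by 0.17 ± 0.0559 (edgeR adjusted p = 0.00905), although tKO and WT overlapped. Sdf2l1, a partner of the co-chaperone Dnajb11 in BiP complexes, stood at 43.2, 46.7 and 46.3 CPM in tKO, 23.1, 27.7 and 26.9 in dKO and 42.97, 51.9 and 48.7 in WT. Its dKO libraries were again the lowest, with a log2 difference of −0.89 ± 0.0801 from WT (edgeR adjusted p = 2.73e-16). Hyou1, a nucleotide exchange factor for BiP, measured 295, 317 and 321 CPM in tKO, 224, 209 and 206 in dKO and 318, 319.6 and 345 in WT. Manf, a small secreted protein that binds BiP, measured 175, 186 and 179.6 CPM in tKO, 122, 134 and 127 in dKO and 168, 173 and 167 in WT. Both were lowest in dKO with no overlap, and for Manf every tKO library was also above every WT library. The difference was −0.62 ± 0.0434 for Hyou1 and −0.40 ± 0.0475 for Manf between dKO and WT (edgeR adjusted p = 7.11e-22 and 1.23e-11).

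Both lectin chaperones fell in dKO as well. Calr, soluble calreticulin, had 926, 974 and 996 CPM in tKO, 741, 766 and 773 in dKO and 934, 961 and 917 in WT. Canx, its membrane-bound relative calnexin, had 646, 612 and 627 CPM in tKO, 572, 582 and 570.2 in dKO and 663, 637 and 658 in WT. The dKO libraries of both lay below all others, while tKO and WT overlapped. The fall in dKO was −0.30 ± 0.0363 for Calr and −0.18 ± 0.0367 for Canx (edgeR adjusted p = 2.99e-11 and 1.97e-05).

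**Figure D2:**
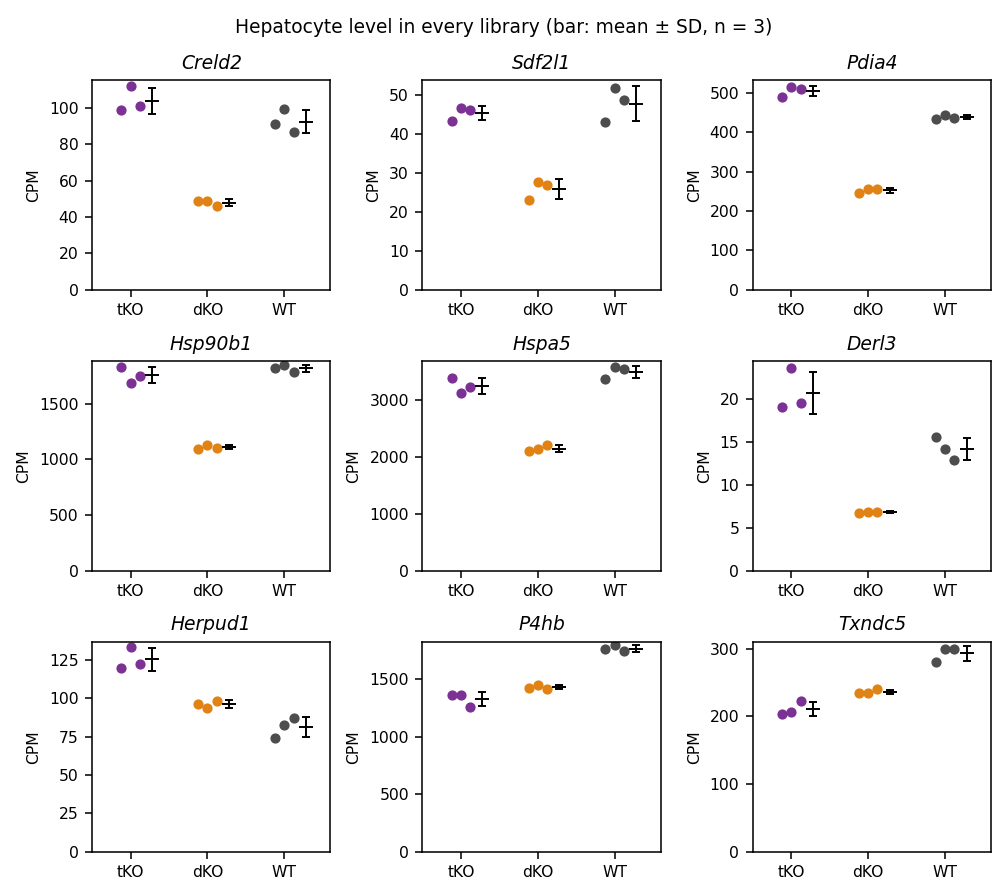
CPM of 9 genes in each hepatocyte library, with tKO left, dKO in the middle and WT right, and bars for the mean ± SD of 3 libraries. Creld2, Sdf2l1, Pdia4, Hsp90b1, Hspa5 and Derl3 are lowest in all 3 dKO libraries, whereas Herpud1 is highest and P4hb and Txndc5 are lowest in the tKO libraries.

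Of the 4 DnaJ co-chaperones, which pass clients to BiP, 2 fell in dKO. Dnajb11 (ERdj3) had 75.7, 90.3 and 85.2 CPM in tKO, 58.4, 62.4 and 60.9 in dKO and 91.5, 97.3 and 87.4 in WT. Dnajc3 (p58IPK) had 235, 218 and 226 CPM in tKO, 169, 170.1 and 165 in dKO and 244, 251 and 257 in WT. Every dKO library was below every library of the other groups for both, and for Dnajc3 all tKO libraries were also below all WT libraries. Against WT, dKO differed by −0.60 ± 0.0608 for Dnajb11 and −0.58 ± 0.0438 for Dnajc3 (edgeR adjusted p = 3.07e-14 and 5.99e-20). Dnajc3 was slightly lower in tKO than in WT, at −0.15 (edgeR adjusted p = 0.00282). For Dnajb11 the tKO and WT libraries overlapped, and its difference of −0.14 (adjusted p = 0.0437) passed the test in 5 of 13 alternatives. Dnajb9 (ERdj4), which returns BiP to Ern1, averaged 278 ± 12.01 CPM in tKO, 244 ± 7.11 in dKO and 248 ± 10.8 in WT (SD, n = 3 each). It did not pass the test in dKO (log2 −0.02 ± 0.0432) and rose in tKO against WT by 0.17 ± 0.0427 (edgeR adjusted p = 7.79e-04). Dnajc10 (ERdj5), a reductase that prepares proteins for degradation, averaged 135 ± 11.1 CPM in tKO, 129.8 ± 8.06 in dKO and 126 ± 1.49 in WT and passed no test.

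Of the 8 protein disulfide isomerases, 6 fell in dKO, and Pdia4 had the largest difference among them. Pdia4 (ERp72) had 489.5, 515 and 511 CPM in tKO, 245, 257 and 255 in dKO and 434, 444 and 436 in WT. The 3 groups did not overlap, with tKO highest and dKO lowest. Pdia4 differed by −0.80 ± 0.0397 in dKO against WT (edgeR adjusted p = 1.60e-30), and tKO was 1.001 ± 0.0394 above dKO (adjusted p = 7.99e-37) and 0.21 ± 0.0380 above WT (adjusted p = 3.82e-06). Pdia3 (ERp57), which works on glycoproteins held by Calr and Canx, had 771, 726 and 747 CPM in tKO, 564, 598 and 599 in dKO and 764, 748 and 729.8 in WT. Pdia6 (P5), which associates with BiP, had 373, 381 and 378 CPM in tKO, 303, 310.2 and 309.6 in dKO and 369, 389 and 380.4 in WT. In both genes the dKO libraries were lowest and the tKO and WT values overlapped, with falls in dKO of −0.35 ± 0.0371 and −0.30 ± 0.0393 (edgeR adjusted p = 2.93e-13 and 3.67e-10).

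P4hb and Txndc5 did not return toward WT in tKO. P4hb encodes the classical protein disulfide isomerase, which is also a subunit of prolyl 4-hydroxylase and of the microsomal triglyceride transfer complex. P4hb had 1362, 1364 and 1256 CPM in tKO, 1424, 1447 and 1412 in dKO and 1759.6, 1793 and 1741 in WT. Txndc5, a thioredoxin-domain isomerase, had 203, 206 and 222 CPM in tKO, 234, 234 and 239 in dKO and 280.2, 299 and 299.6 in WT. For both, all tKO libraries lay below all dKO libraries and these below all WT libraries. Against WT, tKO differed by −0.41 ± 0.0349 for P4hb and −0.48 ± 0.0429 for Txndc5 (edgeR adjusted p = 1.28e-17 and 1.55e-16), and dKO by −0.31 ± 0.0349 and −0.31 ± 0.0427 (adjusted p = 4.65e-12 and 1.86e-09). Between tKO and dKO the differences were −0.11 ± 0.0350 and −0.17 ± 0.0435 (edgeR adjusted p = 0.0157 and 0.00186). Erp44, which retains thiol clients and Ero1 in the early secretory pathway, averaged 123 ± 1.41 CPM in tKO, 113 ± 3.61 in dKO and 126 ± 5.20 in WT (SD, n = 3 each) and was lower in dKO, with a log2 difference from WT of −0.15 ± 0.0499 (edgeR adjusted p = 0.00901). Pdia5 averaged 41.7 ± 4.01 CPM in tKO, 38.5 ± 1.92 in dKO and 40.2 ± 4.17 in WT, and Txndc11 averaged 16.9 ± 3.05 CPM in tKO, 16.1 ± 1.57 in dKO and 16.8 ± 0.914 in WT. Neither passed a test in any hepatocyte comparison.

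Among the degradation genes, Derl3 fell in dKO and Herpud1 rose. Derlins are membrane proteins through which misfolded chains leave the ER, and Derl3 had 19.1, 23.6 and 19.5 CPM in tKO, 6.73, 6.88 and 6.90 in dKO and 15.6, 14.2 and 12.9 in WT. The groups did not overlap, with tKO highest and dKO lowest, at 0.482 of WT (log2 −1.05 ± 0.136, edgeR adjusted p = 3.49e-10). Derl3 was 3.03-fold higher in tKO than in dKO (adjusted p = 1.14e-18) and above WT by 0.55 ± 0.110 (adjusted p = 2.19e-05). Herpud1, a short-lived scaffold protein of the Syvn1 complex, had 120.1, 134 and 123 CPM in tKO, 96.4, 93.5 and 98.7 in dKO and 74.00, 82.7 and 87.2 in WT. All tKO libraries were above all dKO libraries and these above all WT libraries. Herpud1 rose by 0.24 ± 0.0569 in dKO against WT (edgeR adjusted p = 2.57e-04) and by 0.63 ± 0.0550 in tKO against WT (adjusted p = 5.90e-17), and tKO was 0.38 ± 0.0537 above dKO (adjusted p = 9.09e-09).

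Genes of the core degradation complex also fell in dKO. Sel1l, the adaptor that hands substrates to the ligase, had 129.9, 130.5 and 134 CPM in tKO, 102, 97.7 and 93.3 in dKO and 126, 131 and 127 in WT. Syvn1, the ubiquitin ligase also called Hrd1, had 141, 160.3 and 153 CPM in tKO, 118, 116 and 123 in dKO and 136, 133 and 131 in WT. Derl2, the derlin that acts with Sel1l, had 95.3, 93.4 and 90.1 CPM in tKO, 80.8, 82.8 and 83.6 in dKO and 109, 105 and 102 in WT. In all of them the dKO libraries were lowest without overlap, and for Syvn1 and Derl2 the tKO and WT libraries were also apart, with tKO above WT for Syvn1 and below it for Derl2. The falls in dKO were −0.39 ± 0.0507 for Sel1l, −0.17 ± 0.0502 for Syvn1 and −0.35 ± 0.0537 for Derl2 (edgeR adjusted p = 5.41e-10, 0.00425 and 4.26e-08). Derl1 averaged 176 ± 4.44 CPM in tKO, 161 ± 10.3 in dKO and 172 ± 4.77 in WT, and passed the test for tKO against dKO only (log2 0.13 ± 0.0467, edgeR adjusted p = 0.0310).

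Edem1, Edem2 and Os9, which act on misfolded glycoproteins, did not pass the test in dKO. Edem1 and Edem2 take part in trimming mannose residues and Os9 is a lectin that reads the trimmed sugar. They had log2 differences of −0.0043, −0.02 and −0.0043 between dKO and WT (edgeR adjusted p = 0.959, 0.856 and 0.954). Edem3, of the same family and outside the 35 genes, was called lower (log2 −0.17 ± 0.0569, adjusted p = 0.0112) and is named after its values were seen. Edem1 averaged 139 ± 6.87 CPM in tKO, 127 ± 8.68 in dKO and 128 ± 3.98 in WT. It rose in tKO by 0.13 ± 0.0502 against WT and 0.13 ± 0.0502 against dKO (edgeR adjusted p = 0.0319 and 0.0399). The libraries overlapped in both comparisons, and these calls held in 6 of 13 and 5 of 13 alternatives. Edem2 averaged 50.9 ± 3.15 CPM in tKO, 45.3 ± 0.640 in dKO and 45.9 ± 3.44 in WT, and Os9 averaged 184 ± 11.1 CPM in tKO, 171 ± 1.75 in dKO and 172 ± 2.99 in WT, and neither passed a test in tKO.

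The sensor genes Ern1 and Atf6 and the transcription factor gene Xbp1 moved in different directions, by at most 0.25 log2 units. Xbp1, whose RNA is spliced by Ern1, had 326, 338 and 339 CPM in tKO, 363, 367 and 368 in dKO and 329, 319.6 and 331 in WT. All dKO libraries were above all others, by 0.16 ± 0.0392 against WT (edgeR adjusted p = 3.74e-04), and tKO was −0.13 ± 0.0390 from dKO (adjusted p = 0.00771). Counts per gene do not separate spliced from unspliced Xbp1. Ern1, the kinase and RNase that splices it, had 71.2, 75.1 and 75.5 CPM in tKO, 74.3, 64.3 and 70.8 in dKO and 84.6, 80.5 and 83.4 in WT. The WT libraries were highest, and Ern1 was lower in the knockouts, with log2 differences from WT of −0.16 ± 0.0580 in tKO and −0.25 ± 0.0588 in dKO (edgeR adjusted p = 0.0147 and 3.05e-04). Atf6, the membrane-bound transcription factor, had 225, 212 and 224 CPM in tKO, 194, 192 and 192 in dKO and 192, 189.7 and 195 in WT. The tKO libraries were above all others, by 0.19 ± 0.0433 against WT and 0.19 ± 0.0433 against dKO (edgeR adjusted p = 1.03e-04 and 2.41e-04), while dKO and WT overlapped (log2 0.002 ± 0.0439, adjusted p = 0.978).

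The 3 transport genes fell in dKO. Sec24d, a cargo adaptor of the COPII coat that carries proteins out of the ER, had 129.9, 128 and 119 CPM in tKO, 117, 111 and 97.2 in dKO and 134, 138 and 141 in WT. Sec23b, an inner component of that coat, had 98.6, 98.00 and 93.2 CPM in tKO, 81.9, 90.3 and 85.4 in dKO and 94.7, 102 and 94.2 in WT. Sec61b, a subunit of the entry channel, had 40.1, 41.9 and 39.97 CPM in tKO, 36.5, 39.1 and 38.1 in dKO and 46.2, 47.2 and 42.3 in WT. The dKO libraries of all 3 genes lay below the tKO and WT libraries, and tKO lay between the other groups for Sec24d and Sec61b. The falls in dKO were −0.35 ± 0.0526, −0.17 ± 0.0549 and −0.25 ± 0.0724 for Sec24d, Sec23b and Sec61b (edgeR adjusted p = 5.05e-08, 0.00717 and 0.00259). Sec61b did not pass the test between tKO and dKO (log2 0.10 ± 0.0730, adjusted p = 0.315).

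Levels per transcript length spanned more than 2 orders of magnitude and kept much the same order in the 3 groups. The authors' FPKM value of Hspa5, the highest, averaged 1331 ± 55.1 in tKO, 864 ± 21.97 in dKO and 1403 ± 47.3 in WT (SD, n = 3 each). P4hb averaged 543 ± 22.3 FPKM in tKO, 574 ± 5.14 in dKO and 707 ± 10.4 in WT, and Hsp90b1 averaged 660.0 ± 26.2 FPKM in tKO, 411 ± 4.50 in dKO and 669 ± 9.57 in WT. Hsp90b1 ranked 2 in tKO, and P4hb ranked 2 in dKO and WT. Pdia4 ranked 6 in tKO and 10 in dKO. At the low end, Derl3 averaged 16.6 ± 1.94 FPKM in tKO, 5.41 ± 0.0819 in dKO and 11.3 ± 1.06 in WT, and Txndc11 averaged 5.89 ± 1.09 FPKM in tKO, 5.89 ± 1.25 in dKO and 6.32 ± 0.491 in WT.

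**Figure D3:**
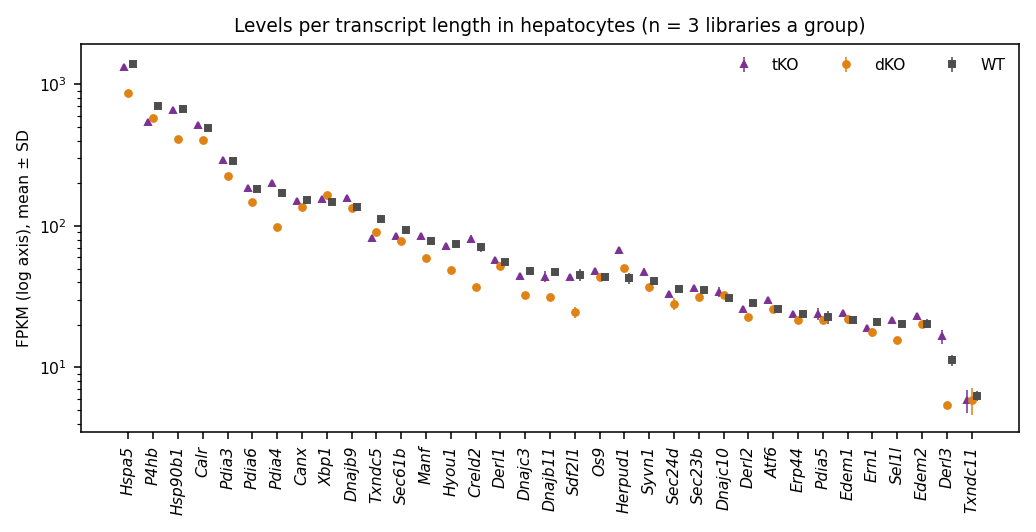
FPKM of the 35 genes on a logarithmic axis, ordered by the WT mean, as mean ± SD of 3 hepatocyte libraries for tKO (triangles), dKO (circles) and WT (squares). Hspa5 is at the top in every group, and Derl3 and Txndc11 are at the bottom.

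Other genes of the secretory pathway were counted from further lists. In dKO against WT these counts stand against 20.0% of all genes lower and 24.0% higher. Of 16 other translocon and signal peptidase genes, 8 fell and 0 rose by edgeR, with 10 of the 16 at an unadjusted p under 0.05, all lower. Examples, as log2 differences, are the signal peptidase subunit Spcs3 (−0.40 ± 0.0523, adjusted p = 4.52e-10), the translocon-associated Ssr3 (−0.32 ± 0.0383) and the channel gene Sec61a1 (−0.27 ± 0.0409). Of 18 genes of N-glycosylation and the calnexin cycle, 9 fell and 1 rose, with Mlec, which binds newly made glycoproteins, at −0.57 ± 0.0511 (edgeR adjusted p = 2.84e-16) and the cargo receptor Lman1 at −0.49 ± 0.0488 (adjusted p = 1.95e-14). In the COPII coat, 7 of 16 fell and 2 rose, with Sec23a at −0.36 ± 0.0599. Among other degradation genes, 6 of 19 fell, including the segregase Vcp (−0.28 ± 0.0365) and Selenos (−0.40 ± 0.0590), and 3 rose. Of 12 other redox genes, 2 fell and 2 rose, which is no more than among all genes. Of the oxidase genes, Ero1l rose (log2 0.61 ± 0.0422, edgeR adjusted p = 1.37e-19) and Ero1lb fell (log2 −0.51 ± 0.0645, adjusted p = 1.47e-10).

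In tKO against WT, where 21.8% of all genes fell and 25.6% rose, 6 of the 16 translocon genes fell and 1 rose, 6 of the 18 glycosylation genes fell and 1 rose, and 6 of the 16 coat genes fell and 2 rose. Mlec stayed lower, at −0.50 ± 0.0506 (edgeR adjusted p = 2.53e-14), and its difference between the knockouts was 0.06 ± 0.0528 (adjusted p = 0.410). Of the other redox genes 5 of 12 fell and 1 rose, and of the other degradation genes 7 of 19 fell and 6 rose. In tKO against dKO, where 14.3% of all genes rose and 15.2% fell, 4 of the 16 translocon genes rose and 2 fell, 6 of the 18 glycosylation genes rose and 0 fell (8 at an unadjusted p under 0.05, of which 1 lower), and 6 of the 16 coat genes rose and 3 fell. Of the redox genes 2 of 12 rose and 4 fell, and of the other degradation genes 4 of 19 rose and 0 fell (7 at an unadjusted p under 0.05, of which 1 lower). Mogs, the glucosidase that starts glycan trimming, was 0.44 ± 0.0528 higher (adjusted p = 5.12e-11).

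Most genes on a list for the PERK arm rose in both knockouts, and whether PERK acted on them was not tested. Of the 8 genes on this list, 7 rose and 0 fell in dKO against WT by edgeR, with 7 at an unadjusted p under 0.05, and 6 rose and 1 fell in tKO against WT. Over all genes, 24.0% rose and 20.0% fell in dKO, and 25.6% rose and 21.8% fell in tKO. The gene that fell, Sesn2, a stress-induced regulator of growth signalling, was chosen after its values were seen and differed by −0.40 ± 0.0758 (edgeR adjusted p = 7.63e-06). Ppp1r15a, which restores translation after stress, averaged 148 ± 6.75 CPM in tKO, 145 ± 11.5 in dKO and 73.9 ± 1.45 in WT (SD, n = 3 each). The transcription factor gene Ddit3 (CHOP) averaged 46.4 ± 1.57 CPM in tKO, 34.6 ± 3.30 in dKO and 19.02 ± 1.48 in WT. Log2 differences from WT were 1.29 ± 0.0841 in tKO and 0.86 ± 0.0886 in dKO for Ddit3 (edgeR adjusted p = 1.42e-23 and 7.07e-14), and 0.997 ± 0.0540 and 0.97 ± 0.0543 for Ppp1r15a (adjusted p = 2.17e-28 and 1.91e-27). Among 10 other sensor genes, Eif2ak3, which encodes PERK, was higher by 0.59 ± 0.0589 in tKO and 0.51 ± 0.0596 in dKO (edgeR adjusted p = 1.86e-14 and 1.07e-11). In all, 4 of these 10 rose and 2 fell in tKO against WT, and 1 rose and 2 fell in dKO against WT, so in dKO these shares were not above those of all genes.

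Markers of other liver cells also differed between the hepatocyte groups. Endothelial markers (6 of 6 listed) summed to 64.7 to 65.8 CPM in tKO, 112 to 128 in dKO and 18.7 to 19.0 in WT, and 6 of 6 rose in dKO and 5 of 6 in tKO against WT. Macrophage markers (6 of 6) summed to 360.3 to 379 CPM in tKO, 319 to 336 in dKO and 122 to 137 in WT. Every group was apart from the others for both lists, and nearly all of the macrophage sum came from Cd68 and Mpeg1. Stellate and fibroblast markers (6 of 6) summed to 30.6 to 34.6 CPM in tKO, 47.7 to 53.8 in dKO and 15.9 to 19.8 in WT. In that list Dcn averaged 15.4 ± 0.805 CPM in tKO, 29.03 ± 1.14 in dKO and 0.434 ± 0.106 in WT, while Reln did not pass the test against WT. Of the cholangiocyte markers (4 of 4 listed), 2 had enough counts to be tested. Sox9 averaged 163 ± 4.04 CPM in tKO, 206 ± 9.35 in dKO and 77.6 ± 8.35 in WT and made up nearly all of their sum, while Epcam averaged 0.720 ± 0.170 CPM in tKO, 1.04 ± 0.433 in dKO and 1.12 ± 0.268 in WT and was not called. Lrat and Krt7 had 2 or fewer counts in every hepatocyte library. On the B and plasma cell list, Jchain had 10 to 13 counts in dKO and 1 or fewer in tKO and WT. Of the other genes on that list, Mzb1 had 0 to 2 counts in tKO, 0 to 1 in dKO and 0 in WT. Cd79a had 1 to 6 in tKO, 3 to 4 in dKO and 1 in WT, and Pou2af1 had 1, 0 to 3 and 0 to 1. Sdc1 was not called in dKO against WT (edgeR adjusted p = 0.169), and Tnfrsf17 had no entry.

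Hepatocyte markers (5 of 6 listed) summed to 40308 to 42309 CPM in tKO, 45494 to 46509 in dKO and 51825 to 53715 in WT, and most of this was Alb. Among the 5, Alb and Ttr fell and Hnf4a rose in tKO against WT. Alb and Hnf4a fell and Apoa1 rose in dKO against WT, and Cps1 was called in neither. The part of these cells in the differences was not tested.

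In liver, none of the 35 genes passed the test between SMSrKO and WT. By edgeR 0 were called, where 0.234% of all genes were, and 5 had an unadjusted p under 0.05, all lower, where 7.15% of all genes were lower and 5.97% higher at that level. DESeq2 also called 0, where it called 2.96% of all genes, and 8 had an unadjusted p under 0.05, of which 7 were lower (7.03% of all genes). With limma on the authors' TPM values 0 were called (0.19% of all genes), and 8 had an unadjusted p under 0.05, all lower (9.62% of all genes). The log2 difference was below 0 for 33 of the 35, against 52.2% of all genes, with a median of −0.24 against −0.01. The groups did not overlap for 3 genes, all lower in SMSrKO (Edem2, Atf6 and Sec24d), where 4.32% of all genes were lower without overlap. Leaving out 1 library at a time moved the number at an unadjusted p under 0.05 to 2 without SMSrKO 6, 2 without SMSrKO 8, 3 without WT 1 and 13 without WT 3. Without WT 1, 8.01% of all genes were lower at that level. The share of all genes was not taken for the other fits, so those counts are given as a description.

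A single WT library stood apart for these genes. WT 1 was above the highest other WT library for 32 of the 35 genes, against 33.0% of all genes tested. It also had the highest CPM of all 8 libraries for 32 of the 35. The median ratio of WT 1 to the mean of the other WT libraries was 1.53 for the 35 genes and 0.996 for all genes. It exceeded 2 for 9 of the 35, against 3.29% of all genes, with 4.04 for Sdf2l1, 3.37 for Creld2 and 3.00 for Hyou1. SMSrKO 6 was the lowest of all libraries for 21 genes and SMSrKO 8 for 8. The share of all genes was not taken for the highest or lowest of all 8 libraries. Without WT 1, 24 of the 35 lay below 0, against 51.8% of all genes, the median was −0.09, and the values ran from −0.71 to 0.25. By edgeR 0 of the 35 were then called (0.682% of all genes), with 3 at an unadjusted p under 0.05, all lower (8.01% of all genes).

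**Figure D4:**
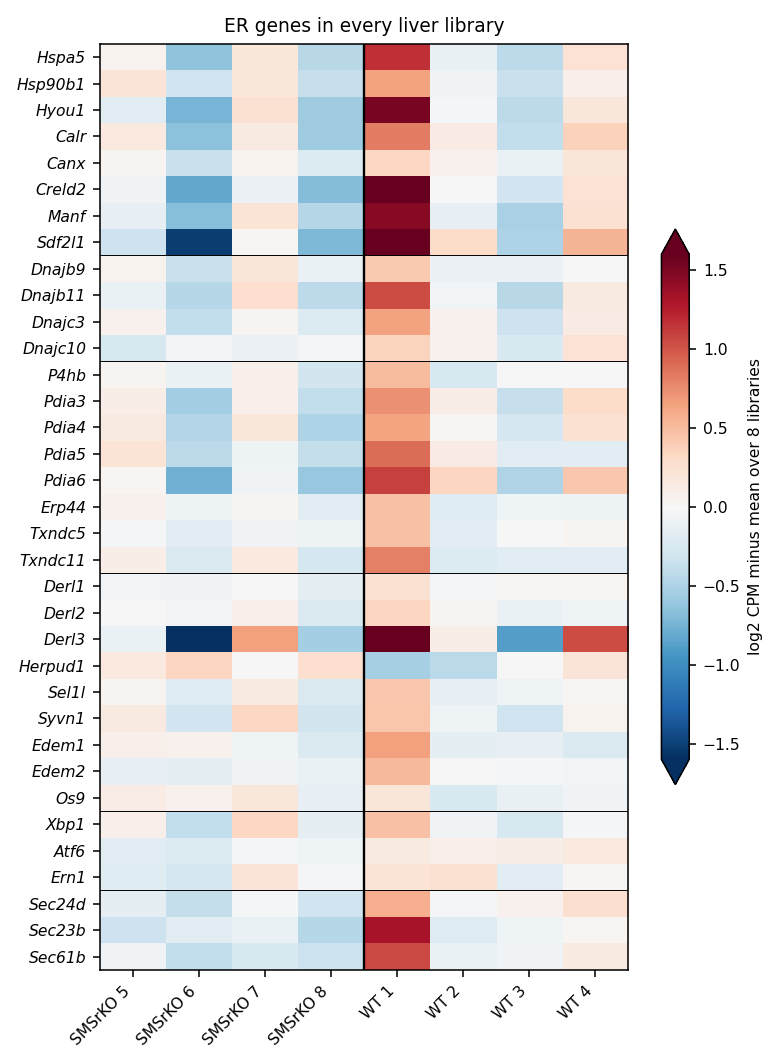
Each of the 35 genes in each liver library, as log2 CPM minus the mean over the 8 libraries, with SMSrKO left of the line and WT right of it. The column of WT 1 is the reddest for 32 genes, and SMSrKO 6 is lowest for 21.

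The genes with the smallest p in liver included a coat gene and a sensor. Sec24d had 75.5, 64.5, 82.3 and 67.1 CPM in SMSrKO and 126, 82.6, 88.01 and 100.2 CPM in WT. No SMSrKO value reached the lowest WT value, with a log2 difference of −0.46 ± 0.138 (unadjusted p = 0.00787, edgeR adjusted p = 0.210). Atf6 had 73.7, 71.2, 81.5 and 78.99 CPM in SMSrKO and 91.1, 87.4, 88.1 and 92.4 CPM in WT. These groups were also apart, by −0.23 ± 0.0732 (edgeR adjusted p = 0.222), and Atf6 differed by −0.23 ± 0.0771 without WT 1. Edem2 was the other gene with no overlap, at 34.3, 33.9, 36.1 and 35.1 CPM in SMSrKO and 53.9, 37.7, 36.95 and 36.6 CPM in WT (log2 −0.25 ± 0.125, edgeR adjusted p = 0.430).

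Sdf2l1, Creld2, Pdia6 and Sec61b had the next smallest p, and in all 4 the difference shrank without WT 1. Sdf2l1 had 11.8, 5.16, 15.1 and 8.98 CPM in SMSrKO and 67.3, 18.1, 10.5 and 21.4 CPM in WT. Creld2 had 30.4, 18.01, 29.7 and 19.5 CPM in SMSrKO and 106, 31.5, 25.7 and 37.3 CPM in WT. The groups overlapped for both, and WT 1 was far above every other library. The log2 difference of Sdf2l1 was −1.53 ± 0.602 (edgeR adjusted p = 0.342), against −0.71 ± 0.376 without WT 1, and that of Creld2 was −1.05 ± 0.468 (adjusted p = 0.395), against −0.38 ± 0.214. Pdia6 had 185, 106, 175 and 119 CPM in SMSrKO and 386, 229, 130.0 and 245 CPM in WT. Sec61b had 20.4, 16.2, 17.9 and 16.7 CPM in SMSrKO and 44.3, 19.7, 20.5 and 23.4 CPM in WT. The groups overlapped for both, with log2 differences of −0.76 ± 0.318 and −0.61 ± 0.251 (edgeR adjusted p = 0.361 and 0.355), against −0.46 ± 0.276 and −0.26 ± 0.106 without WT 1.

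**Figure D5:**
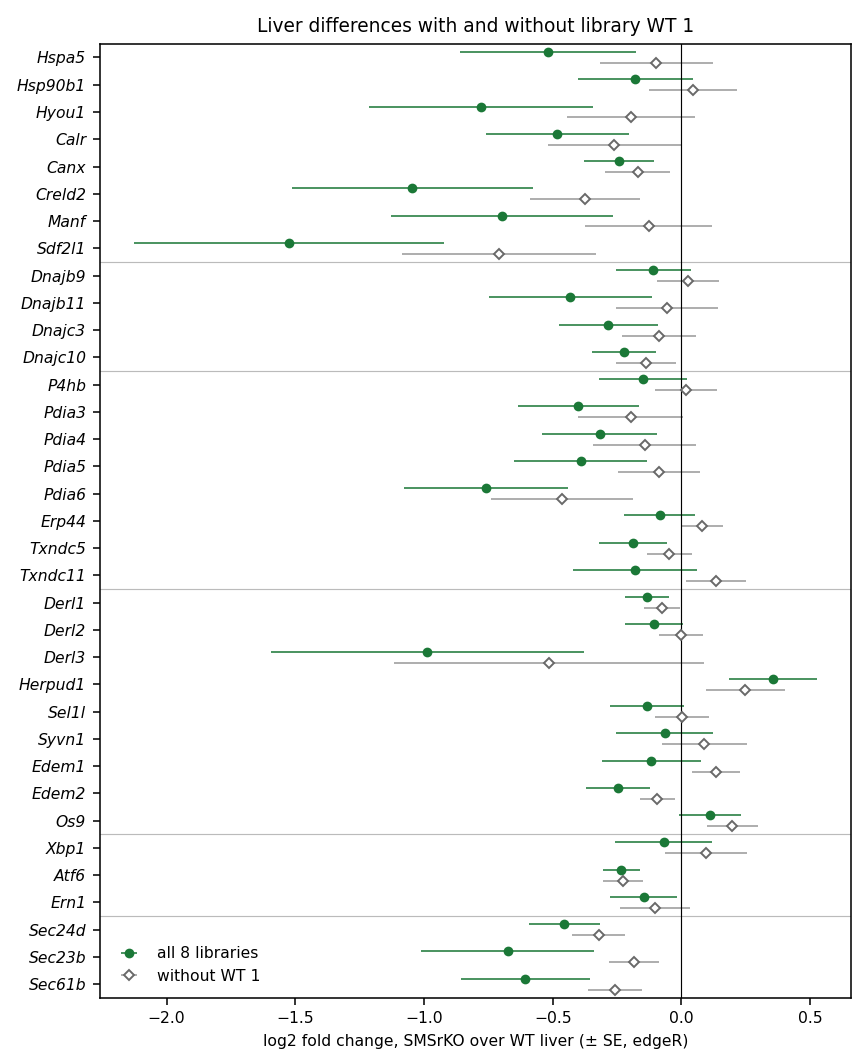
Log2 fold change of SMSrKO over WT liver from edgeR with its standard error for the 35 genes, with all 8 libraries (filled) and without WT 1 (open). Most points move toward 0 without WT 1, and Sdf2l1 stands at −0.71 without it and at −1.53 with all libraries.

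The liver groups overlapped for Ern1, Xbp1 and Herpud1. Ern1 had 58.3, 54.7, 76.9 and 64.8 CPM in SMSrKO and 77.4, 78.9, 58.5 and 67.2 CPM in WT, and Xbp1 had 168, 120.3, 199.7 and 142 CPM in SMSrKO and 219.7, 152, 132 and 157 CPM in WT. Both overlapped, with log2 differences of −0.15 ± 0.129 and −0.07 ± 0.188 (edgeR adjusted p = 0.659 and 0.897), and that of Xbp1 was 0.10 ± 0.158 without WT 1. Herpud1 had 534, 608, 474 and 576 CPM in SMSrKO and 331, 354, 475 and 554 CPM in WT, and with Os9 it was one of the genes with a log2 difference above 0, at 0.35 ± 0.172 (edgeR adjusted p = 0.410). On the scale of the authors' TPM values P4hb was highest, at 865 ± 81.9 in SMSrKO and 991 ± 184 in WT (SD, n = 4 each), and Herpud1 stood at 508 ± 59.1 TPM in SMSrKO and 413 ± 109 in WT. Hspa5, first in hepatocytes, ranked 5 in both liver groups, at 265 ± 67.1 TPM in SMSrKO and 389.8 ± 187 TPM in WT. Levels of the 2 experiments were normalized separately and were not tested against each other.

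The 7 further pathway lists gave 0 calls in liver by edgeR, and their counts at an unadjusted p under 0.05 stand against 7.15% of all genes lower and 5.97% higher. In the PERK list 3 of 8 genes were lower at that level (Chac1, Sesn2 and Atf3), with Atf3 at −1.52 ± 0.426 (edgeR adjusted p = 0.205). In the glycosylation list 2 of 18 were lower, with Mlec at −0.39 ± 0.127 (edgeR adjusted p = 0.238). Among the other degradation genes 2 of 19 were higher (Rnf139 and Aup1). In the translocon list 1 of 15 was lower (Sec11c), in the COPII list 1 of 15 (Sec13) and among the other sensors 1 of 11 (Atf6b), and 0 of 12 redox genes reached that level. Hepatocyte markers (5 of 6 found) summed to 68198 to 76715 CPM in SMSrKO liver and 45478 to 60296 CPM in WT liver, with WT 1 at 57491, and their part in the differences was not tested.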

How the data were processed

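RNA was sequenced from 8 liver and 9 hepatocyte libraries, which were grouped by their labels. The authors deposited whole-number counts per gene and a TPM table for liver, per the file headers. For hepatocytes the authors deposited expected counts and FPKM values per gene, per the file headers, listing only genes above 0. A gene missing from such a file was given a count of 0. Among these expected counts 6.25% held a fraction, and each was rounded to a whole number. Per the submitters' processing notes, the tools were DESeq2 1.30.1, Bowtie2 2.2.5, STAR 2.5.2b and Trimmomatic 0.36, with the builds mm10 and GRCm38. What each did, which program counted reads and whether strand was used is not given in the sources used here, which leaves antisense and overlapping genes uncertain.

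Counts were tested with edgeR 4.0.16 in R 4.3.3, using filterByExpr with a minimum count of 10, TMM scaling and its quasi-likelihood F test (robust). The Benjamini-Hochberg adjustment ran over every gene tested, with a threshold of 0.05. The liver libraries formed 1 fit and the hepatocyte libraries another, with 3 contrasts. CPM is the count as a share of the TMM-scaled library total, and SE is the absolute log2 fold change over the square root of F. Alternatives were DESeq2 1.42.0, limma 3.58.1 on log2 of the deposited TPM or FPKM values plus 0.1, size factors (RLE) or library totals in place of TMM, no filter, fits of 2 groups, the liver dispersion and leaving out each library. The liver dispersion was 1 common value for every gene, used with edgeR's likelihood ratio test. The tests were tried on simulated data.

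A gene counted as lower in dKO and near WT in tKO when it was called lower in dKO against WT and higher in tKO against dKO, with an absolute log2 difference of at most 0.25 between tKO and WT. The members, the gene lists, these limits and the rule for which genes get full values were chosen with earlier results of these data known. That rule took the genes near WT in tKO, up to 6 of the largest rises and falls per hepatocyte contrast, the 6 smallest p-values in liver, Atf6, Ern1 and Xbp1, and up to 4 genes of each further list with the smallest p. In liver, Edem2, Herpud1, P4hb and Hspa5 were named outside it, after their values were seen. Promoters were taken from RefSeq, with a sequence at hand for 31 of the 35 genes.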

Additional observations from a re-analysis of the deposited data

Results flagged for a closer look

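For 9 genes the WT liver library WT 1 lay far above the other WT libraries, with a gap to the nearest of them that exceeded Dixon's critical value for a group of 4. WT 1 had 106 CPM for Creld2, 84.4 CPM for Dnajb9, 77.9 CPM for Erp44, 51.1 CPM for Txndc11 and 145 CPM for Derl1. It had 305 CPM for Edem1, 53.9 CPM for Edem2, 86.4 CPM for Sec23b and 44.3 CPM for Sec61b. The other WT libraries ran, for example, from 25.3 to 26.2 CPM for Txndc11 and from 25.7 to 37.3 CPM for Creld2. The 2 liver groups of each of the 35 genes gave 70 groups to look at, and chance flags about 1 in 20 groups. The genes are measured in the same library, so these are not 9 separate events. All are in WT 1, which also had the largest total count of the liver libraries.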

How the results depend on the processing

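No paired analysis was possible because the groups compared share no replicate numbers. Of the alternatives run, the liver dispersion with its likelihood ratio test moved the hepatocyte counts most. With the liver dispersion, 0 of the 35 genes rose and 6 fell in dKO against WT (9 at an unadjusted p under 0.05), 0 rose and 0 fell in tKO against WT (3), and 4 rose and 0 fell in tKO against dKO (8), and 3 were lower in dKO and near WT in tKO. In tKO against WT 5 fell and 12 rose with library totals alone, where 18.9% of all genes fell and 28.2% rose. With limma on FPKM 4 fell and 9 rose, and without WT 2, 5 fell and 8 rose. The share of all genes was not taken for the limma fit or the fit without WT 2. Leaving out 1 library at a time gave 23 to 25 falls and 2 to 2 rises in dKO against WT, 5 to 8 falls and 6 to 10 rises in tKO against WT, 2 to 3 falls and 22 to 26 rises in tKO against dKO, 17 to 18 genes near WT in tKO, and 0 to 0 of either direction in liver. A limit of 0.15 in place of 0.25 left 14 genes near WT in tKO, and a limit of 0.40 left 18. The share of all genes was not taken at either of these limits, nor for the hepatocyte fits that left out 1 library. With the liver dispersion it was not taken for the rule or for the unadjusted p. Those counts are given as a description. The log2 difference of Xbp1 in liver turned to 0.10 without WT 1 and 0.04 without SMSrKO 6, in a range of −0.20 to 0.10. That of Atf6 between dKO and WT turned to −0.0031 without the filter and ran from −0.0090 to 0.011 on leaving out 1 library, below 0 without WT 1, WT 2 or dKO 4. Of the named gene differences under these alternatives, 325 kept direction and call in dKO against WT and 22 lost the call, 176 and 45 in tKO against WT, and 325 and 39 in tKO against dKO. The calls kept least often, of 13 alternatives, were those of Edem1 (5 in tKO against dKO, 6 in tKO against WT), Dnajb11 (5), Sec24d (6) and Ern1 (8) in tKO against WT, and P4hb (8) in tKO against dKO. The causes were not tested.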
